A study of Mus musculus with 4 samples.

Results

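β-Catenin, encoded by Ctnnb1, the complex that destroys it and the genes it switches on were followed through 29 probe sets of 10 genes, out of 45037 probe sets on the array. Every probe set that the array annotation assigns to exactly 1 of the genes was taken. The genes were chosen for their roles, with earlier results of these data known. They are Ctnnb1, the kinases Gsk3b, Gsk3a and Csnk1a1, the scaffolds Apc, Axin1 and Axin2, and the targets Ccnd1, Apcdd1 and Tnfrsf19, with Axin2 a scaffold and a target at once. RNA came from the dorsal skin of male C3H mice that were 8 weeks old at the start, were shaved to bring resting follicles into growth, and received TCQA, a quinic acid that carries 3 caffeoyl groups, or water on the skin every day. Arrays TCQA 1 and TCQA 2 held skin treated with 1% TCQA for 30 days, and Control 1 and Control 2 held skin treated with Milli-Q water for 30 days. Hair was plucked from the treated area before the skin was collected. The study describes 5 mice per group, and whether an array carried 1 mouse or a pool is not given in the sources used here, and the p-values therefore reflect how far these arrays vary, which may be technical. The values are log2 signals, 1 per probe set and array, made by the authors with RMA, and differences are TCQA minus control.

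Most β-catenin in an epithelial cell is bound to cadherins at adherens junctions, and the free pool is kept low by the destruction complex. On a scaffold of Axin and APC, casein kinase 1α (Csnk1a1) and then glycogen synthase kinase 3 (Gsk3a, Gsk3b) phosphorylate β-catenin, which marks it for ubiquitination and the proteasome. A Wnt signal stops this, and β-catenin then enters the nucleus, joins TCF and LEF factors on DNA and raises transcription of its targets. In skin this signal drives the growth phase of the hair cycle and acts on Mitf in melanocytes. Control of β-catenin is largely at the level of the protein, and the arrays measured RNA.

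TCF and LEF factors bind DNA around the letters CTTTGA or CTTTGT, so the start-site windows of the feedback target Axin2 and of the target Tnfrsf19 are shown, as RefSeq gives them for GRCm38.p6, with 250 bases before and 50 bases after the start. Capitals mark CTTTGA read on either strand. The windows are chr11:108920099-108920398 on the plus strand for Axin2 and chr14:61037938-61038237 on the minus strand for the downstream of 2 Tnfrsf19 starts.
Axin2: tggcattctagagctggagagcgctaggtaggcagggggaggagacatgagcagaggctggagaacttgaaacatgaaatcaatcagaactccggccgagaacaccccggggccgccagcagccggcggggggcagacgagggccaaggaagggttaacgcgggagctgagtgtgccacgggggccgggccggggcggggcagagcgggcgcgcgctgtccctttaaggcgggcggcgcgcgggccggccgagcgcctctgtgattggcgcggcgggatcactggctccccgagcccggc
Tnfrsf19: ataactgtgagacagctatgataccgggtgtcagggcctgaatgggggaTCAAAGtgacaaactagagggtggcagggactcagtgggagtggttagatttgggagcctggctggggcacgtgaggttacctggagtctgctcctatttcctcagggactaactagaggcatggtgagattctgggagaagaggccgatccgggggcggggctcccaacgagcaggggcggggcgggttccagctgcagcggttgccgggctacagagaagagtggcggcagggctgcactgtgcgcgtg
The Tnfrsf19 window holds 1 match, read on the opposite strand and starting at base 50, and the Axin2 window holds none. The annotated Axin2 gene begins at chr11:108917828, so the window shown lies inside the gene. The sequence at that gene start was not examined. Of 7 windows of 5 members in the table (Ctnnb1, Gsk3b, Gsk3a, Axin2 and Tnfrsf19), 3 hold CTTTGA, those of Gsk3b, Gsk3a and the downstream Tnfrsf19 start, and 0 hold CTTTGT. Of all 32851 windows of this length, 16.0% hold CTTTGA and 18.7% hold CTTTGT, on either strand. A match is a description of the letters in the window and not a binding site.

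The 4 arrays differed in a way that touches every value below. Control 1 correlated with the other arrays at r between 0.412 and 0.413 across probe sets, while the other 3 correlated with each other at r between 0.884 and 0.956. Markers of keratinocytes, the main cells of the epidermis, had a median of 2.54 on TCQA 1, 2.64 on TCQA 2, 8.41 on Control 1 and 3.04 on Control 2 over 6 genes, where the median of all probe sets lay between 2.30 and 2.55. Over 6 skeletal muscle genes, of which Acta1, Mylpf, Tnnt3, Myh4 and Tnnc2 were above 10 on Control 1, the medians were 1.98 on TCQA 1, 2.60 on TCQA 2, 11.24 on Control 1 and 2.10 on Control 2. The RNA of Control 1 carried keratinocyte and muscle markers at high values. On the other 3 arrays Krt14 lay between 2.37 and 2.86 and Krt10 between 1.93 and 2.23, close to the middle of all probe sets. Krt5, at 4.52 to 5.02, and Krt1, at 3.43 to 3.64, were higher there. Itga6 lay between 2.58 and 3.22 and Krt15 between 1.63 and 1.86. Over 6 fibroblast and 3 adipocyte genes the medians were also highest on Control 1, at 4.34 and 5.21. Of these genes, Col1a2 and Lep were instead lowest on Control 1, and Pdgfra was neither highest nor lowest there. The 5 endothelium genes were mixed. Their median was 2.93 on Control 1, 2.54 on TCQA 1, 2.27 on TCQA 2 and 2.42 on Control 2. The 2.93 was the value of Kdr, which was lowest on Control 1, as was Pecam1. Egfl7 was neither highest nor lowest on Control 1, and Cdh5 and Tek were highest there. The medians of hair follicle, melanocyte and leukocyte markers were not highest on Control 1. The median over 5 hair follicle keratins was 2.03 on TCQA 1, 2.55 on TCQA 2, 1.75 on Control 1 and 1.87 on Control 2. Over 6 melanocyte genes it was 3.16 on TCQA 1, 3.23 on TCQA 2, 2.09 on Control 1 and 2.96 on Control 2, and over 5 leukocyte genes it was 2.84, 2.88, 2.34 and 2.12 on the same arrays in that order. Control 1 was the lowest array for the hair follicle and melanocyte medians. Gapdh, which the study used as its real-time PCR reference, had 6.32 on TCQA 1, 6.37 on TCQA 2, 11.02 on Control 1 and 6.65 on Control 2. Whether one or more of the arrays failed or was normalized apart from the rest cannot be told from the deposited values, and this limits every difference given here, with or without Control 1. The part of these differences in the results for the members was not tested, and the difference of each member probe set is given with and without Control 1. More cells of a type and more RNA per cell cannot be told apart in whole skin.

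All 3 Ctnnb1 probe sets had a negative difference when both control arrays were used, none of which passed the test, and 2 of the 3 had a positive one once Control 1 was left out. Probe set 1420811_PM_a_at had 3.32 on TCQA 1 and 3.05 on TCQA 2, against 8.83 on Control 1 and 2.84 on Control 2. Both TCQA arrays lay between the control arrays, so the groups overlap. The difference was -2.65 (standard error, SE, 2.03, limma adjusted p = 0.92), and without Control 1 it was 0.35 (SE 0.30), with both TCQA arrays above Control 2. Probe set 1450008_PM_a_at had 2.22 and 2.42 on the TCQA arrays, against 5.63 on Control 1 and 2.37 on Control 2, and its difference of -1.68 became -0.05 without Control 1. Probe set 1430533_PM_a_at had 2.55 and 2.54 on the TCQA arrays, against 3.15 on Control 1 and 2.32 on Control 2, and its difference of -0.19 became 0.23. Control 1 was the highest array for each of the 3 probe sets, by 5.51, 3.21 and 0.60 above the next array in the order given. Among all 45037 probe sets, 23.3% differed by at least 0.35 in either direction between the TCQA arrays and Control 2, so a difference of about the size seen for 1420811_PM_a_at without Control 1 was common on these arrays.

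**Figure D1:**
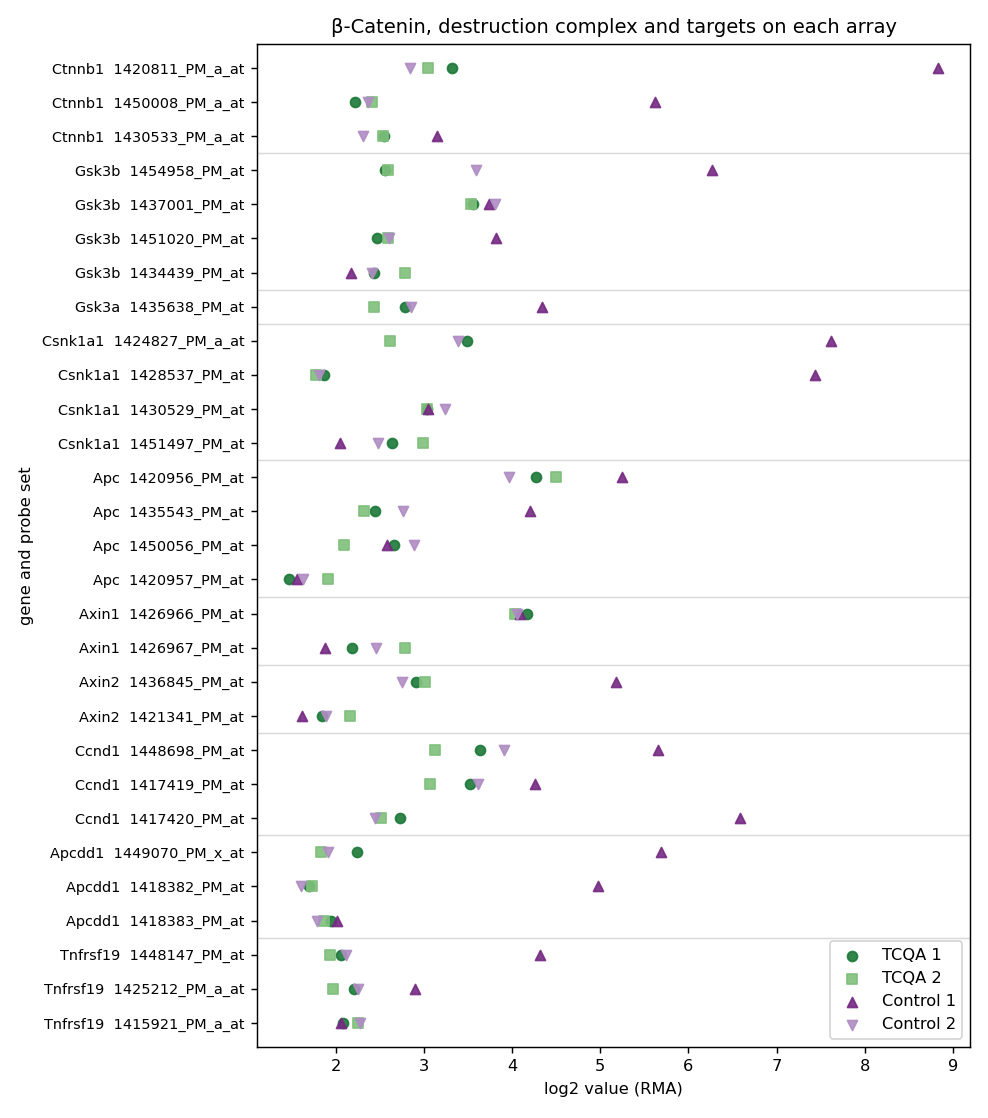
Log2 value of each of the 29 probe sets (rows, grouped by gene) on each array. Green symbols are the 2 TCQA arrays and purple symbols the 2 control arrays. Control 1 stands far to the right for some probe sets of a gene and among the other arrays for others, as for Csnk1a1, whose 4 probe sets read between 2.05 and 7.62 on Control 1.

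The kinases that mark β-catenin for destruction gave 9 probe sets, of which 7 had a negative difference and 2 a positive one, and none passed an adjusted p of 0.05. Gsk3b had the largest difference of any member without Control 1, on 1 of its 4 probe sets. Its probe set 1454958_PM_at had 2.57 on TCQA 1 and 2.60 on TCQA 2, against 6.26 on Control 1 and 3.59 on Control 2. Both TCQA arrays lay below both control arrays and were 0.03 apart. The difference was -2.35 (SE 0.95, limma adjusted p = 0.92, unadjusted p = 0.061), and without Control 1 it was -1.01 (SE 0.28, limma adjusted p = 1, unadjusted p = 0.014). This was the only one of the 29 probe sets with a difference of at least 1 in size without Control 1, where the next largest size was 0.53. Its TCQA values lay close to the median of all probe sets, 2.54 on TCQA 1 and 2.49 on TCQA 2. The median of the 29 was 2.55 on TCQA 1, 2.54 on TCQA 2 and 2.48 on Control 2. On Control 2 the median of all probe sets was 2.55. Without Control 1, 0.375% of all probe sets were lower with TCQA by at least 1 and 0.16% higher by at least 1. The same probe set was at least 2-fold lower with and without Control 1, and it had an unadjusted p no higher than 0.05 only without Control 1 of these 2 fits. The other Gsk3b probe sets did not show a difference of this size. With 1437001_PM_at the values were 3.56 and 3.54 on the TCQA arrays, against 3.74 on Control 1 and 3.81 on Control 2. With 1451020_PM_at they were 2.47 and 2.59 on the TCQA arrays, against 3.81 on Control 1 and 2.61 on Control 2. With 1434439_PM_at they were 2.44 and 2.79 on the TCQA arrays, against 2.17 on Control 1 and 2.42 on Control 2. The first pair of these had the TCQA arrays below both controls, as did 10.9% of all probe sets. Probe set 1434439_PM_at had them above both controls, as did 17.9% of all. Their differences were -0.22, -0.68 and 0.32, and -0.26, -0.08 and 0.20 without Control 1.

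Gsk3a, the second form of the kinase, had a single probe set, 1435638_PM_at, with 2.79 on TCQA 1 and 2.44 on TCQA 2, against 4.34 on Control 1 and 2.86 on Control 2. Both TCQA arrays were below both controls, with a difference of -0.99 (SE 0.60, limma adjusted p = 0.92) that was -0.25 without Control 1, less than the 0.35 between the TCQA arrays.

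Csnk1a1, the priming kinase, split into probe sets that were high on Control 1 and probe sets that were not. Probe set 1424827_PM_a_at had 3.49 on TCQA 1 and 2.61 on TCQA 2, against 7.62 on Control 1 and 3.39 on Control 2. Probe set 1428537_PM_at had 1.87 and 1.78 on the TCQA arrays, against 7.44 on Control 1 and 1.81 on Control 2. In both, Control 2 lay between the TCQA arrays, and differences of -2.45 and -2.80 became -0.34 and 0.015 without Control 1. Probe set 1430529_PM_at had 3.04 and 3.04 on the TCQA arrays, against 3.05 on Control 1 and 3.24 on Control 2. Probe set 1451497_PM_at had 2.64 and 2.99 on the TCQA arrays, against 2.05 on Control 1 and 2.48 on Control 2. Here Control 1 was level with or below the others, the TCQA arrays lay below both controls with the first and above both controls with the second, and the differences were -0.11 and 0.55, and -0.20 and 0.33 without Control 1.

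The scaffolds Apc, Axin1 and Axin2 were divided in direction, with 4 positive and 4 negative differences over 8 probe sets and a median of -0.09, against 0.12 over all probe sets. Apc, the large scaffold that presents β-catenin to the complex, had 4.27 on TCQA 1 and 4.50 on TCQA 2, against 5.25 on Control 1 and 3.96 on Control 2, with 1420956_PM_at. That probe set overlapped between the groups, and its difference of -0.22 was 0.42 without Control 1. With 1435543_PM_at it had 2.45 and 2.32 on the TCQA arrays, against 4.21 on Control 1 and 2.77 on Control 2, so both TCQA arrays were below both controls, with a difference of -1.11 (SE 0.58, limma adjusted p = 0.92) that was -0.39 without Control 1. These 2 Apc probe sets ran in opposite directions against Control 2. With 1450056_PM_at the values were 2.67 and 2.10 on the TCQA arrays, against 2.58 on Control 1 and 2.89 on Control 2. With 1420957_PM_at they were 1.47 and 1.91 on the TCQA arrays, against 1.56 on Control 1 and 1.64 on Control 2. Both overlapped, with differences of -0.35 and 0.09 that were -0.50 and 0.06 without Control 1.

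Axin1, the core scaffold of the complex, had no difference beyond the spread of its arrays. Probe set 1426966_PM_at had 4.17 on TCQA 1 and 4.04 on TCQA 2, against 4.09 on Control 1 and 4.05 on Control 2, a difference of 0.03 (SE 0.32, limma adjusted p = 0.99) that was 0.05 without Control 1 and -0.054 after each array was centred on its median. The second, 1426967_PM_at, had 2.18 and 2.79 on the TCQA arrays, against 1.88 on Control 1 and 2.45 on Control 2, and its difference of 0.32 was smaller than the 0.60 between the TCQA arrays and was 0.03 without Control 1. Axin1 was the only one of the 10 genes with no probe set on which Control 1 exceeded each other array by at least 1.

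Axin2, a scaffold that β-catenin itself induces and that is widely used as a readout of the pathway, had 2.91 on TCQA 1 and 3.01 on TCQA 2, against 5.18 on Control 1 and 2.75 on Control 2, with 1436845_PM_at. With 1421341_PM_at it had 1.84 and 2.16 on the TCQA arrays, against 1.62 on Control 1 and 1.89 on Control 2. The groups overlapped with both probe sets. The differences were -1.01 (SE 0.87, limma adjusted p = 0.92) and 0.25 (SE 0.35, limma adjusted p = 0.92). Without Control 1 both were positive, at 0.21 and 0.11, of which the second was smaller than the 0.32 between the TCQA arrays. Over all 45037 probe sets the median size of the difference without Control 1 was 0.19, so 0.21 was an ordinary size on these arrays.

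Cyclin D1 (Ccnd1) carries cells through G1 and is a target of β-catenin in many epithelia. With a pair of its 3 probe sets it read lower on both TCQA arrays than on both controls, without passing the test. Of all probe sets, 10.9% had both TCQA arrays below both controls. Probe set 1448698_PM_at had 3.63 on TCQA 1 and 3.13 on TCQA 2, against 5.66 on Control 1 and 3.91 on Control 2, and 1417419_PM_at had 3.52 and 3.08 on the TCQA arrays, against 4.26 on Control 1 and 3.62 on Control 2. The differences were -1.40 (SE 0.68, limma adjusted p = 0.92) and -0.64, and without Control 1 they were -0.53 and -0.32, against gaps of 0.50 and 0.44 between the TCQA arrays. Probe set 1417420_PM_at had 2.72 and 2.52 on the TCQA arrays, against 6.59 on Control 1 and 2.45 on Control 2. There the TCQA arrays lay between the controls, and the difference of -1.90 was 0.17 without Control 1.

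Apcdd1, a membrane protein that inhibits Wnt signaling and is itself a target of the pathway, separated Control 1 from the 3 other arrays with a pair of its 3 probe sets. It had 2.25 on TCQA 1 and 1.84 on TCQA 2, against 5.69 on Control 1 and 1.92 on Control 2, with 1449070_PM_x_at, whose probes can match several transcripts. With 1418382_PM_at it had 1.70 and 1.73 on the TCQA arrays, against 4.98 on Control 1 and 1.61 on Control 2. With 1418383_PM_at it had 1.95 and 1.87 on the TCQA arrays, against 2.01 on Control 1 and 1.79 on Control 2. The groups overlapped with each, and the differences of -1.76, -1.58 and 0.01 were 0.13, 0.11 and 0.12 without Control 1.

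Tnfrsf19, a receptor of the TNF family that responds to Wnt signaling in stem cells of several epithelia, had 2.06 on TCQA 1 and 1.94 on TCQA 2, against 4.32 on Control 1 and 2.12 on Control 2, with 1448147_PM_at. With 1425212_PM_a_at it had 2.21 and 1.97 on the TCQA arrays, against 2.90 on Control 1 and 2.26 on Control 2. Both TCQA arrays were below both controls with these, as with 10.9% of all probe sets. The differences of -1.22 and -0.49 were -0.12 and -0.17 without Control 1, sizes no larger than the gap between the TCQA arrays. With 1415921_PM_a_at it had 2.08 and 2.26 on the TCQA arrays, against 2.07 on Control 1 and 2.27 on Control 2, so that the group means were equal at 2.17, and the difference without Control 1 was -0.10.

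**Figure D2:**
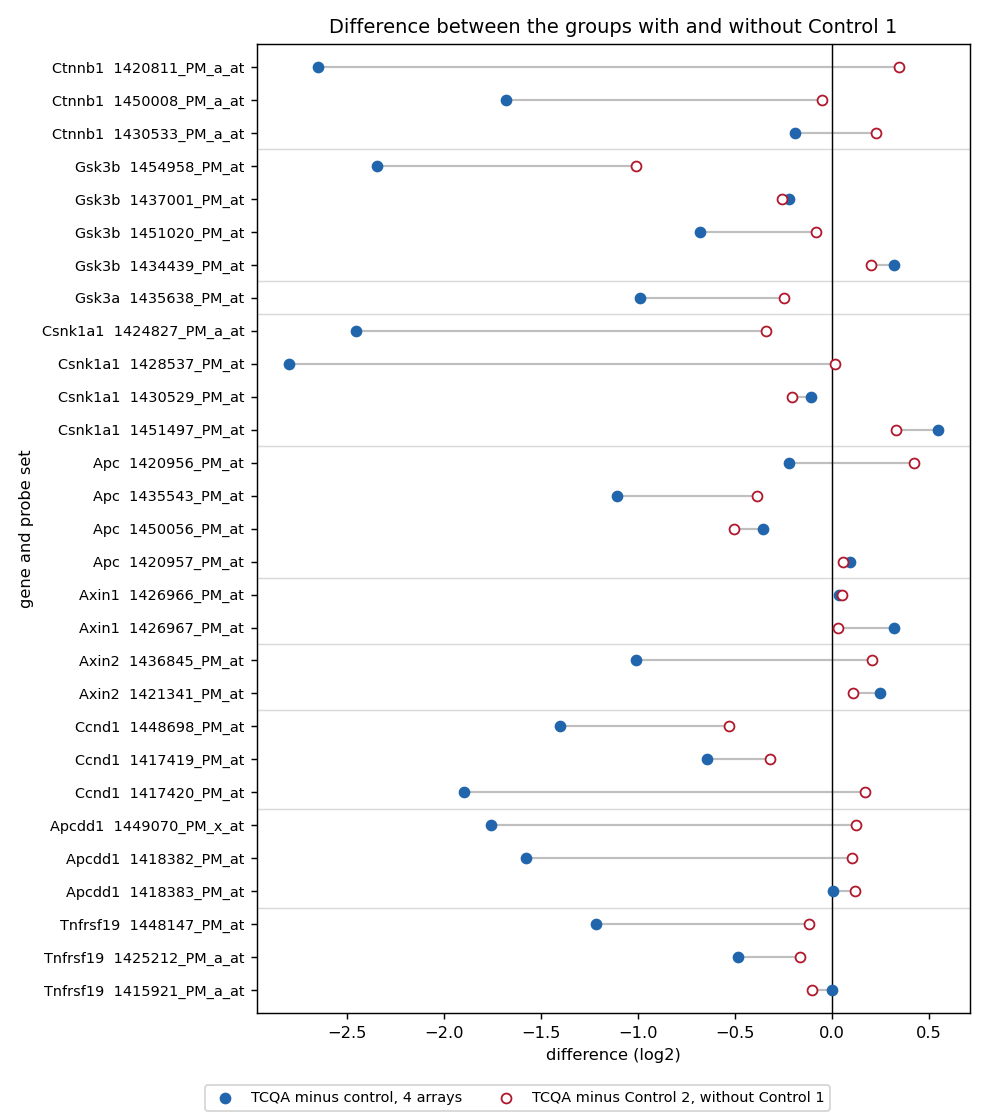
Difference in log2 value for each of the 29 probe sets, as TCQA minus control over 4 arrays (filled blue) and as TCQA minus Control 2 without Control 1 (open red), joined by a grey line. The median is -0.64 over 4 arrays and 0.015 without Control 1, and Gsk3b 1454958_PM_at is the row that stays at or beyond -1 in both.

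Over the whole group, 21 of 29 probe sets had a negative difference, 7 a positive one and 1 a difference of 0, with a median of -0.64, against 0.12 over all probe sets. A positive difference was seen for 61% of all probe sets. Values at least 2-fold lower in the mean of the TCQA arrays were found for 12 of the 29, against 11.3% of all probe sets, and values at least 2-fold higher for 0 of the 29, against 1.04% of all. Both TCQA arrays lay below both controls for 10 of the 29 and above both for 2, where the shares over all probe sets were 10.9% and 17.9%. The probe sets on which the TCQA arrays lay below both controls belonged to Gsk3b (3), Ccnd1 (2), Tnfrsf19 (2), Csnk1a1 (1), Gsk3a (1) and Apc (1). None of the 29 passed limma at an adjusted p under 0.05, a call made for 0% of the 45037 probe sets, and 0 did at an unadjusted p under 0.05, a call made for 0.313% of all. An unmoderated test called 0 of the 29 after adjustment and 1 at an unadjusted p under 0.05, where it called 1.67% of all, namely Gsk3b 1437001_PM_at, whose difference was -0.22. The methods of the study name a 2-fold change for the arrays, which the counts above apply. With an unadjusted p no higher than 0.05 required as well, 0 of the 29 passed in limma in either direction, where 0.135% of all probe sets were higher and 0.122% lower. For 17 of the 29 the standard deviation of the 2 control arrays exceeded the size of the difference between the groups. With 2 arrays in each group the smallest p that exact permutation allows is 0.333.

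Of the 21 negative differences, 13 stayed negative without Control 1 and 8 became positive. On all 12 probe sets that were at least 2-fold lower over 4 arrays Control 1 exceeded each other array by at least 1, and 1 of the 12, Gsk3b 1454958_PM_at, was at least 2-fold lower without it. For 3 of the 21, Gsk3b 1437001_PM_at, Csnk1a1 1430529_PM_at and Apc 1450056_PM_at, the difference was larger in size without Control 1, which was not the highest array for them. Control 1 was the highest array for 19 of the 29 probe sets, against 28% of all probe sets. Control 1 exceeded each other array by at least 1 for 14 of the 29 probe sets, against 15.9% of all probe sets, and by at least 3 for 7 of them, against 5.32% of all. The 14 came from 9 genes, and in 8 of the 9 another probe set of the same gene did not show the excess. Without Control 1, the median difference of the 29 was 0.015, and 15 were positive and 14 negative, where 46.7% of all probe sets were positive. Both TCQA arrays lay above Control 2 for 9 probe sets and below it for 12, where the shares over all probe sets were 27.2% above and 33.8% below. In that comparison, with 0% of all probe sets and 0 of the 29 at an adjusted p under 0.05 in limma, Gsk3b 1454958_PM_at was the 1 probe set of the 29 at an unadjusted p under 0.05, a call made for 1.19% of all, and it was also at least 2-fold lower, as did 0.238% of all probe sets, while 0 of the 29 and 0.0644% of all met both limits on the higher side. Without Control 2, in contrast, 14 of the 29, from 9 genes, were lower at an adjusted p between 0.00069 and 0.031 in limma, where 16.1% of all probe sets were lower at that threshold. The remaining array of a group is assumed in these fits to vary like the arrays of the other group.

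**Figure D3:**
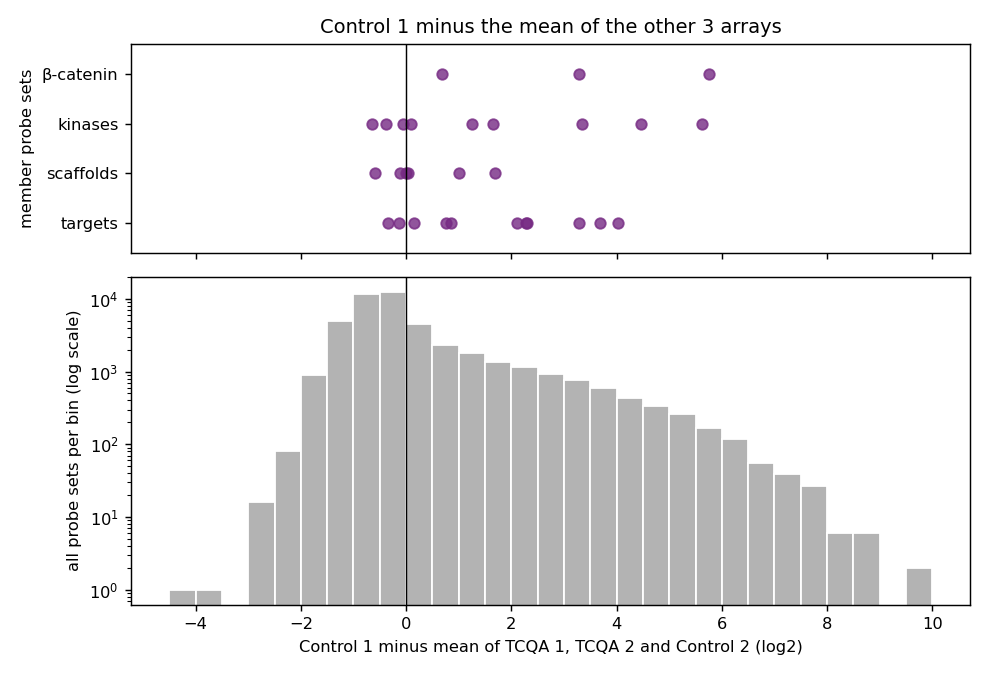
Log2 value of Control 1 minus the mean of the other 3 arrays, for the member probe sets by role (top, 1 point per probe set, Axin2 among the targets) and for all 45037 probe sets (bottom, number per bin of 0.5 on a log axis). The median is 1.00 for the 29 probe sets and -0.34 for all probe sets, and 7 of the 29 lie below 0.

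Each role held probe sets of both directions once Control 1 was left out. The 3 kinases had 3 positive and 6 negative differences without Control 1 over 9 probe sets (median -0.20), the 3 scaffolds had 6 positive and 2 negative over 8 (median 0.06), and the 4 targets with Axin2 had 6 positive and 5 negative over 11 (median 0.11). These counts are a description, and the difference between roles was not tested. Probe sets of a gene also disagreed among themselves, since 5 of the 10 genes had both positive and negative differences over 4 arrays and 5 did without Control 1. Without Control 1, Axin1, Axin2 and Apcdd1 had only positive differences, of 0.03 to 0.21, and Gsk3a and Tnfrsf19 only negative ones, of -0.25 to -0.10.

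Other genes of the pathway were taken from a list of 67, written by role, of which 62 had a probe set of their own. Each was read from whichever probe set had the highest mean over the arrays, Control 1 included. None passed an adjusted p of 0.05 in limma in either direction, with 31 positive and 31 negative differences and a median of 0.00, where 56.1% of all 17097 genes had a positive one and 0% were called. Among 20 further genes of β-catenin degradation 9 were positive and 11 negative, among 15 nuclear partners 7 and 8, among 7 junction partners 2 and 5, and among 20 other targets 13 and 7. Without Control 1 there were 33 positive and 29 negative, where 45.3% of all genes were positive. Control 1 exceeded each other array by at least 1 for 20 of the 62 genes, against 19.9% of all genes.
The largest differences over 4 arrays were those of genes high on Control 1. E-cadherin (Cdh1), which holds β-catenin at the membrane, had 1.49 on TCQA 1 and 1.73 on TCQA 2, against 7.63 on Control 1 and 1.51 on Control 2, a difference of -2.96 that was 0.10 without Control 1. α-Catenin (Ctnna1), which links β-catenin to actin, had 2.37 and 2.02 on the TCQA arrays, against 6.98 on Control 1 and 2.51 on Control 2, and a difference of -2.55 that was -0.31 without Control 1. Ppp2ca, the catalytic subunit of protein phosphatase 2A, had 2.21 and 2.20 on the TCQA arrays, against 6.64 on Control 1 and 2.47 on Control 2, and a difference of -2.35 that was -0.26.
Other genes led when Control 1 was left out. Frat2, which binds GSK3 and keeps it from Axin, had 2.51 on TCQA 1 and 1.66 on TCQA 2, against 3.44 on Control 1 and 2.89 on Control 2. Its difference of -1.08 was -0.80 without Control 1. Tle3, a corepressor of TCF factors, had 3.54 and 4.42 on the TCQA arrays, against 3.82 on Control 1 and 3.27 on Control 2. Its difference of 0.44 was 0.71 without Control 1. Apc2 is a relative of Apc read by a probe set that can match related transcripts. It had 3.41 and 3.95 on the TCQA arrays, against 2.13 on Control 1 and 3.15 on Control 2, and its difference of 1.04 was 0.54. For Frat2 and Tle3 the gap between the TCQA arrays, 0.85 and 0.89, was larger than the difference without Control 1. For Apc2 the gap was 0.54, as large as the difference without Control 1.

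**Figure D4:**
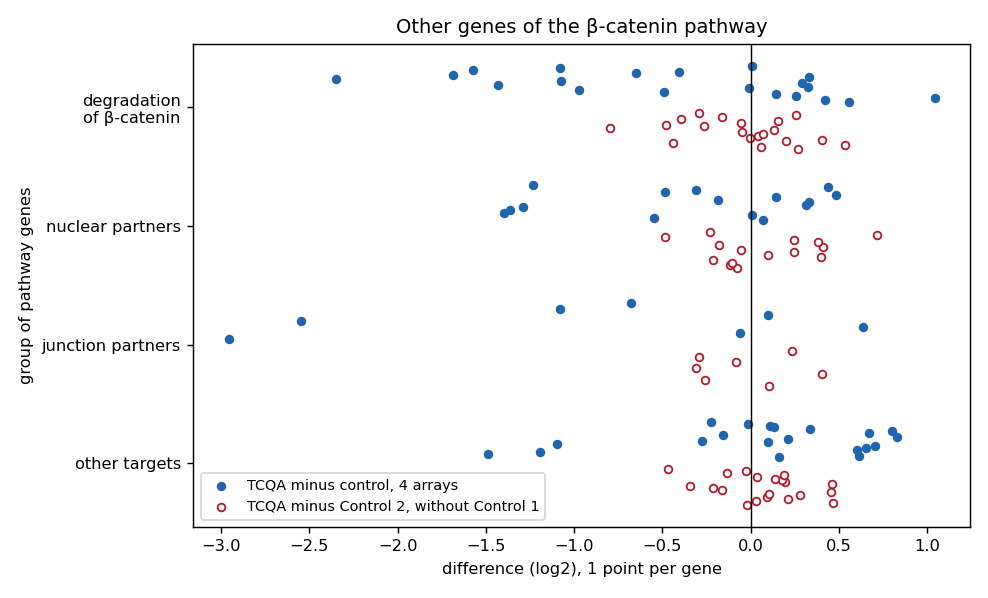
Difference in log2 value for 62 other genes of the β-catenin pathway, 1 point per gene, by group (rows), as TCQA minus control over 4 arrays (filled blue) and as TCQA minus Control 2 without Control 1 (open red). The lowest filled point, Cdh1 at -2.96, belongs to the junction partners, and the open points lie between -0.80 and 0.71.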

How the data were processed

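Total RNA of treated dorsal skin was hybridized to 4 Affymetrix mouse array strips with perfect-match probes, 2 per group. The authors deposited log2 values, made with RMA, and the submitters' processing notes name RMA, Transcriptome Analysis Console and Affymetrix Expression Console. Whether the arrays were normalized together is not given in the sources used here. The file holds 45141 probe sets, of which 104 Affymetrix controls were left out, and 28898 of the rest name 1 gene, 551 several and 15588 none in the platform annotation. No second normalization or filter was applied.

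The TCQA arrays were set against the control arrays with the lmFit and eBayes steps of limma 3.58.1 (R 4.3.3). Tests were two-sided, with Benjamini-Hochberg adjustment over 45037 probe sets and 2 residual degrees of freedom, and a second fit left out Control 1. The 2 residual degrees of freedom belong to the fit of all 4 arrays. In the second fit the gap between the TCQA arrays was a probe set's only residual spread of its own. The eBayes step draws each variance toward a value estimated from all probe sets. The SE and p-values of that fit therefore rest largely on the pooled value. Gsk3b 1454958_PM_at had a gap of 0.03 and an SE of 0.28 there. The pathway genes were fitted with 1 probe set per gene, the one with the highest mean (17097 genes). The limma step was tested on simulated data. All probe sets of the 10 members are named, with, of the other pathway genes, the 3 largest differences over 4 arrays and the 3 largest without Control 1. Members and lists were chosen with earlier results of these data known. Alternatives were a quantile normalization, median centring, a brightness filter, limma's trend and robust options, an unmoderated test, a replicate block, other probe set choices and leaving out each array. The number of arrays limits the precision.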

Additional observations from a re-analysis of the deposited data

How the results depend on the processing

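At an adjusted p of 0.05 there were 0 calls in every fit but the one without Control 2, so leaving out 1 array in turn gave between 0 and 10538 calls. The number of probe sets with a 2-fold difference and an unadjusted p no higher than 0.05 was 61 higher and 55 lower, and it was 182 and 100 after a further quantile normalization, 3 and 16 without the dimmer probe sets, 37 and 67 with limma's trend and robust options, and 12 and 14 with the unmoderated test. Leaving out 1 array gave between 1 and 5532 higher, and between 0 and 7979 lower. The labels share replicate numbers and give no pairing. With the replicate block 0 probe sets passed after adjustment and 54 were higher and 227 lower at these limits, and with the crossed pairing, chosen after seeing the data because deviations of same-numbered arrays correlated at -0.12, these were 0, 16 and 53.

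The median over the member probe sets lay between -0.96 and 0.015 when 1 array was left out, and reversed only without Control 1. The median over the member genes, -1.31, lay between -2.30 and -0.032. Control 1 took part in choosing the probe set read for each gene, the one with the highest mean. With the mean of each gene's probe sets instead, the median over the member genes was -0.86. For the pathway genes the median of 0.00 (-0.001 before rounding) lay between -0.10 and 0.077. Without the dimmer probe sets it was -0.41, and the median over the member probe sets was -1.11. Control 1 counted toward that brightness. Csnk1a1 1428537_PM_at, for example, was kept with 7.44 on Control 1 and 1.87 on TCQA 1, 1.78 on TCQA 2 and 1.81 on Control 2.

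Among the 29 member probe sets, 2 changed direction after median centring, Axin1 1426966_PM_at at -0.054 and Apcdd1 1418383_PM_at at -0.080. After quantile normalization 3 did, Apc 1420956_PM_at at 0.54, Apc 1420957_PM_at at -0.035 and Apcdd1 1418383_PM_at at -0.13. Gsk3b 1454958_PM_at passed these limits after quantile normalization, with the trend and robust options, with the replicate block and without either control array, and under no other alternative run on the member probe sets. When 1 array was left out, probe sets that changed direction ranged as follows. Ctnnb1 1420811_PM_a_at lay between -5.65 and 0.35, Ctnnb1 1430533_PM_a_at lay between -0.60 and 0.23, Csnk1a1 1428537_PM_at lay between -5.61 and 0.015, Apc 1420956_PM_at lay between -0.86 and 0.42, Apc 1420957_PM_at lay between -0.13 and 0.32, Axin1 1426966_PM_at lay between -0.035 and 0.10, Axin2 1436845_PM_at lay between -2.22 and 0.21, Ccnd1 1417420_PM_at lay between -3.96 and 0.17, Apcdd1 1449070_PM_x_at lay between -3.64 and 0.13, Apcdd1 1418382_PM_at lay between -3.26 and 0.11 and Apcdd1 1418383_PM_at lay between -0.10 and 0.12. The cause of these changes was not tested beyond the arrays left out.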

Other observations

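The probe sets of other genes whose pattern over the 4 arrays was closest to that of Ctnnb1 1420811_PM_a_at, by Euclidean distance of log2 values centred on their mean, belonged to Rpl35 at 0.0696, Rps28 at 0.115 and the metallothionein Mt1 at 0.139. Rpl35, a ribosomal protein, had 3.01 on TCQA 1 and 2.72 on TCQA 2, against 8.42 on Control 1 and 2.48 on Control 2. The median over 66 ribosomal protein genes was 3.69 on TCQA 1 and 3.26 on TCQA 2, against 9.37 on Control 1 and 3.40 on Control 2. The likeness describes 4 arrays, of which Control 1 stands apart from the rest.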
